A study of Mus musculus with 12 samples.

Results

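Fabp1, Fpr1 and Apold1 are 3 mRNAs whose m6A-bound signal was lower in the lung of mice with chronic allergic asthma than in control lung. They are 3 of the 56554 transcript probes of the array, and they were chosen by that difference in the bound RNA. In the log2 values deposited for the bound RNA, 227 transcript probes were over 1.5-fold lower in asthma with an unadjusted P below 0.05 in an equal-variance t test. Fabp1, Fpr1 and Apold1 rank 1, 2 and 3 among them by fold change. The deposited files give probe names without gene names, so each gene is tied to its probe through the study's own list of altered mRNAs. The probe of Fabp1 is ASMM10EP3A100049171, that of Fpr1 is ASMM10EP3A100140583 and that of Apold1 is ASMM10EP3A100100318. Because the same 6 mice gave both the choice and the values, the differences between asthma and control below are described and not tested.

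Lung RNA came from female BALB/c mice, 3 control and 3 asthma, with an age of 8 to 10 weeks in the labels. The paper gives a younger age, so the age when the lungs were taken is not known here. The asthma mice received intraperitoneal ovalbumin (OVA, 0.01%), an egg protein used as allergen, on Days 0 and 7, and then breathed aerosols of 2.5% OVA 3 times a week for 7 weeks. The control mice were given PBS by both routes. RNA pulled down by an antibody against m6A (IP, in Cy5) and the RNA left behind in the supernatant (Sup, in Cy3) of each mouse were hybridised together to 1 array. The labels do not say how the lungs of single mice were processed apart from this, so the spread between arrays stands for the mice and the handling together. Control mouse 1 shared slide 1 with all 3 asthma mice, whereas slide 2 held the other two control mice. Dyes were not swapped. In the IP channel 60.1% to 70.0% of transcript probes were well above background, and in the Sup channel 80.4% to 84.4%. No transcript spot was saturated. Markers of lung cells were not analysed here, since the probes carry no gene names. In lung tissue, fewer cells of a type and less RNA per cell cannot be told apart.

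N6-methyladenosine is the most common internal modification of mRNA. It is written by a methyltransferase complex around METTL3 and METTL14, can be removed by FTO and ALKBH5, and is read by proteins that affect how long an mRNA lasts and how it is translated. The signal of a transcript in the bound fraction depends on both its amount and its methylated share, whereas the IP to Sup ratio of 1 array compares the fractions of the same mouse. Fabp1 encodes liver fatty acid-binding protein, a small cytosolic carrier of long-chain fatty acids that is best known from liver and intestine. Fpr1 encodes formyl peptide receptor 1, a G protein-coupled receptor through which neutrophils and other phagocytes sense N-formylated peptides of bacteria and mitochondria. Apold1 encodes apolipoprotein L domain containing 1, a membrane protein described as an early response gene of vascular endothelium. Fabp1 and Apold1 lie on chromosome 6 and Fpr1 on chromosome 17.

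The 250 bases before the start of each gene are shown because all 3 held the TATAAA letters of a TATA box. The start is that of RefSeq, and the study's list begins the transcripts of Fabp1 and Apold1 further upstream, so that, if its positions are of the same build, the transcript listed there runs through part of the window of Fabp1 and all of that of Apold1. The sequences are from RefSeq (build GRCm38.p6) and are written 5′ to 3′ along the gene. Capitals mark matches on either strand to 4 motifs. These are the TATA box searched as TATAAA, the CAAT box searched as CCAAT, the GC box searched as GGGCGG, and AGGTCA. The last is a half-site of nuclear receptors, only part of the site to which PPAR binds.
Fabp1, chr6:71199629-71199878, plus strand: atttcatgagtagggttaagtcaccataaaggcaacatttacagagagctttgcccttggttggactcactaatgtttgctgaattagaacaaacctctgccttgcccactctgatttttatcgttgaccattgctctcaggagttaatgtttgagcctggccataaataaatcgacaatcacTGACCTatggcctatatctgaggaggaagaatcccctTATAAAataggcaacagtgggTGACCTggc
Fpr1, chr17:17883940-17884189, minus strand: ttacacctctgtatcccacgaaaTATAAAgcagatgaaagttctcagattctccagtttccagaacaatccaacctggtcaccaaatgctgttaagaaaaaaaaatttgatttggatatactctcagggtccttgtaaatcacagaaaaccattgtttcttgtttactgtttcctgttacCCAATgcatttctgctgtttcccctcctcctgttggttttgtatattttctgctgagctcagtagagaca
Apold1, chr6:134981751-134982000, plus strand: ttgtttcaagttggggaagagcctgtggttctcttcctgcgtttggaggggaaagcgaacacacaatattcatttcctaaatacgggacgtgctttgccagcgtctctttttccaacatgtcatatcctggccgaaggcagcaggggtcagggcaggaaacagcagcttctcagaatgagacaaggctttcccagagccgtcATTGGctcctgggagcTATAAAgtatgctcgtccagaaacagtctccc

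TATAAA began 30 bases before the start of Fabp1, 32 bases before that of Apold1 and 227 bases before that of Fpr1. Of 32536 distinct windows of this length, 12.3% held TATAAA on either strand. A CCAAT match was found in Fpr1 and Apold1, and 33.8% of all windows held one. Both AGGTCA matches of Fabp1 lie on the opposite strand, as TGACCT, and 14.0% of all windows held this motif. GGGCGG, held by 33.0% of all windows, was in none of these 3 windows. The matches are letters in a window and are no evidence of a bound factor.

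Fabp1 had the widest difference of the 3 in the bound fraction. Its spot intensity in IP was 1054, 2329 and 1039 in control mice 1, 2 and 3, over a local background of 19 to 20. In asthma mice 1, 2 and 3 it was 193, 234 and 140.5, over a local background of 19 to 21. All 6 spots were well above background, and the brightest asthma spot was far below the dimmest control spot. On the log2 scale, relative to the mean of the spike-in probes, the IP signal was 3.80, 4.80 and 3.90 in the control mice and 1.32, 1.53 and 1.12 in the asthma mice. The means were 4.17 ± 0.55 (SD, n = 3) and 1.32 ± 0.21 (SD, n = 3), a difference of -2.84 (standard error 0.28) or 7.18-fold lower in asthma. Control mouse 2 stood about 1 log2 unit above the other two control mice, and the gap between the lowest control and the highest asthma mouse was 2.27.

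Fpr1 came next, with a smaller difference than Fabp1. Its IP spot intensity was 420, 872 and 480.5 in control mice 1, 2 and 3 and 204.5, 210 and 154 in the asthma mice 1, 2 and 3. Its log2 IP signal was 2.54, 3.42 and 2.84 in the control mice and 1.40, 1.41 and 1.22 in the asthma mice. Again control mouse 2 was the highest, while the asthma mice lay close together. The means were 2.94 ± 0.45 (SD, n = 3) and 1.34 ± 0.10 (SD, n = 3), so the IP signal of this receptor was 3.02-fold lower in asthma, a difference of -1.59 (standard error 0.23).

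Apold1 had the narrowest difference of the 3 in IP, and on the spike-in scale its control mice lay close together. Its IP spot intensity was 347, 349 and 350 in control mice 1, 2 and 3 and 144.5, 190.5 and 155 in the asthma mice 1, 2 and 3. Its log2 IP signal was 2.29, 2.19 and 2.42 in the control mice and 0.99, 1.29 and 1.23 in the asthma mice. The order of the mice within each group was not that of the other two genes. The means were 2.30 ± 0.12 (SD, n = 3) and 1.17 ± 0.16 (SD, n = 3), a difference of -1.13 (standard error 0.13) or 2.19-fold lower in asthma. It was 3.46-fold lower in the deposited values and 3.54-fold lower with the scanner's processed signal.

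In all 3 genes the IP values of the asthma and control mice did not overlap. Of the 37359 transcript probes well above background on all 3 arrays of a group, 16 (0.0428%) were over 1.5-fold lower in asthma without overlap, and these 3 were among them by choice. That number ran from 6 with no scaling to 548 with the bright spike-in probes only, was 320 in the deposited values, and was 116 without control mouse 3 and 120 without asthma mouse 3. With an unadjusted limma P below 0.05 in place of the overlap, 21 probes (0.0562%) were over 1.5-fold lower in IP, against 596 (1.32%) in Sup and 3 (0.00808%) in the ratio. Over all tested probes the median IP difference was 0.15, and it ran from -0.25 with the bright spike-in probes only to 0.33 with no scaling, so this shift turned with the scaling and was smaller in size than the difference of each of the 3 genes. Ordered from the lowest IP difference, Fabp1 was in place 2, Fpr1 in place 8 and Apold1 in place 22. The next mRNA of the study's list below Apold1 was Zc3h18, with 3.40-fold in the deposited values against 3.46-fold for Apold1. In the spike-in-scaled signal Zc3h18 was 2.11-fold lower, with control mice spread from 1.32 to 2.74 and a gap of only 0.0043 to the highest asthma mouse.

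**Figure D1:**
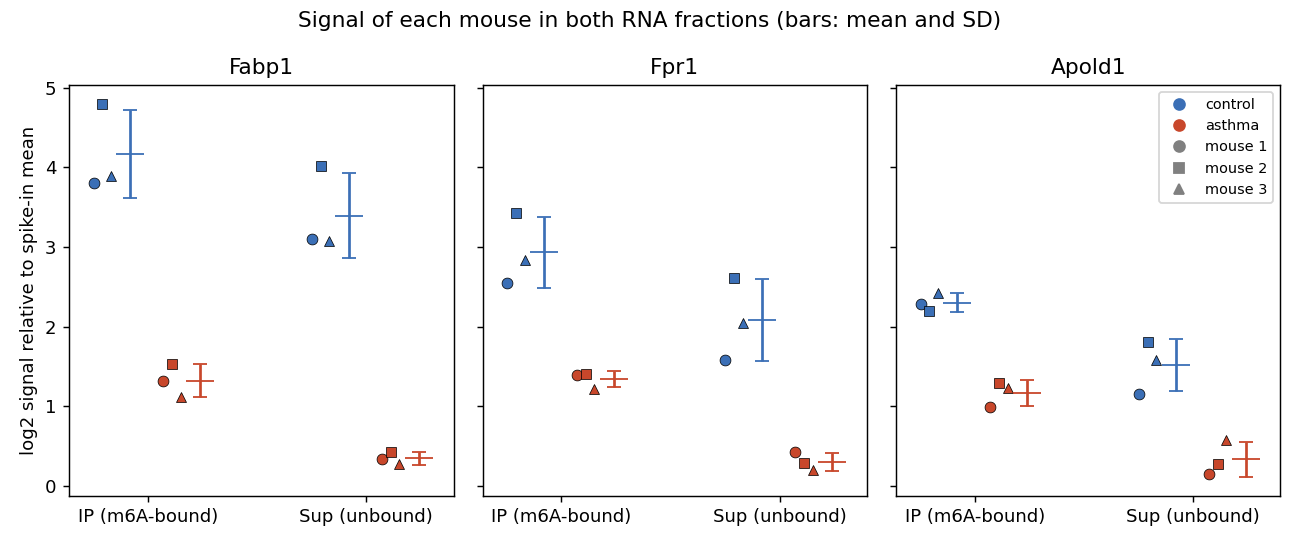
Log2 signal relative to the spike-in mean (vertical axis) of Fabp1, Fpr1 and Apold1 in the bound (IP) and unbound (Sup) fraction, with 1 point per mouse (3 control, 3 asthma, marker shape for the mouse number) and the mean with SD beside them. In both fractions of every gene the 3 asthma mice lie below the 3 control mice, and control mouse 2 is the highest in Fabp1 and Fpr1.

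The unbound RNA of the 3 genes was lower in the same mice. The Sup spot intensity of Fabp1 was 670, 1491 and 649.5 in control mice 1, 2 and 3 and 83, 87 and 60 in the asthma mice 1, 2 and 3, over a local background of 12 to 14. Its log2 Sup signal was 3.10, 4.01 and 3.07 in the control mice and 0.34, 0.43 and 0.27 in the asthma mice. The asthma mice differed little among themselves, and the 3 control mice kept the shape seen in IP, with mouse 2 apart from the other two. The difference in the Sup signal of Fabp1 was -3.05 (standard error 0.26), or 8.27-fold lower in asthma. This fold changed with the background correction and with the source of the signal. With an offset of 16 in place of 50 it was 11.5, with no background correction 12.7, in the deposited values 15.2 and with the scanner's processed signal 16.3.

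For Fpr1 the log2 Sup signal was 1.58, 2.61 and 2.05 in control mice 1, 2 and 3 and 0.43, 0.29 and 0.20 in the asthma mice 1, 2 and 3. The difference was -1.78 (standard error 0.25), or 3.43-fold lower in asthma, and the control mice stood in the same order as in IP. In the deposited values Fpr1 was 5.70-fold lower in Sup, and with the scanner's processed signal 6.09-fold. For Apold1 the log2 Sup signal was 1.16, 1.81 and 1.58 in the control mice and 0.15, 0.27 and 0.58 in the asthma mice. The Sup difference of Apold1 was -1.18 (standard error 0.19), or 2.27-fold lower, against 3.97-fold in the deposited values and 4.25-fold with the scanner's processed signal. The Sup spot intensity of Apold1 was 144, 289.5 and 202 in control mice 1, 2 and 3. In the Sup spots of the asthma mice Apold1 was 65, 73 and 83. The control mice of Apold1 were spread more widely in Sup than in IP on the spike-in scale, but about equally in the deposited values, which were 1.20, 2.12 and 1.74 in Sup and 1.74, 2.31 and 2.66 in IP.

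No Sup value of an asthma mouse reached that of a control mouse in any of the 3 genes. Among 45243 transcript probes tested in Sup, 698 (1.54%) were over 1.5-fold lower in asthma without overlap, and the median difference was -0.072. The Sup number ran from 146 with slide as a block to 4182 with the scanner's processed signal, and leaving out 1 mouse gave 117 without control mouse 2 and 2285 without control mouse 1. Fabp1 was in place 2, Fpr1 in place 9 and Apold1 in place 41 from the lowest Sup difference. The Sup values come from the same mice and the same arrays as the IP values, so they are not independent of the choice of the genes. Of the 16 probes lower without overlap in IP, 14 were also over 1.5-fold lower without overlap in Sup.

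**Figure D2:**
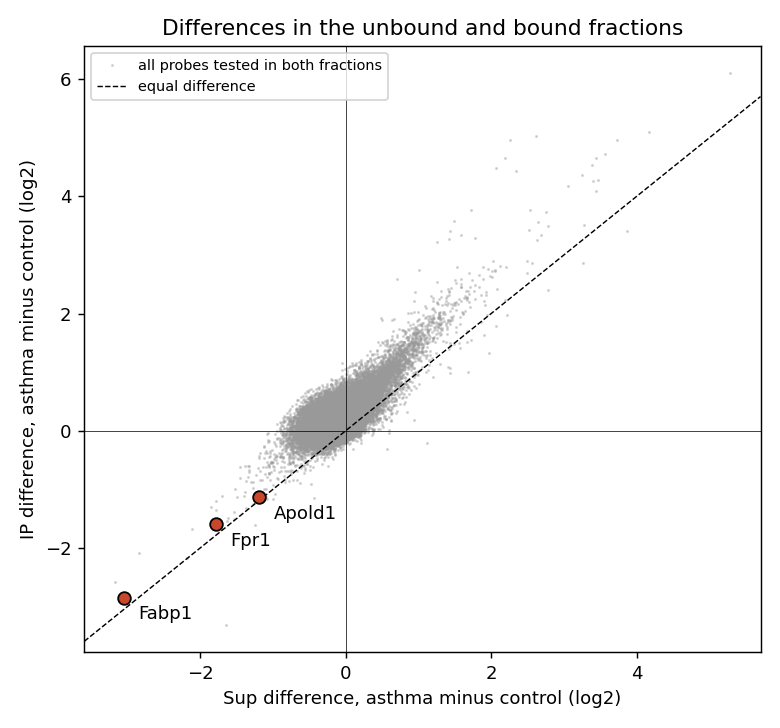
Asthma minus control difference in log2 signal in Sup (horizontal axis) and in IP (vertical axis) for each probe tested in both fractions (grey points), with Fabp1, Fpr1 and Apold1 in red and a dashed line where both differences are equal. The 3 genes lie near that line at the low end, with IP differences of -2.84, -1.59 and -1.13 against Sup differences of -3.05, -1.78 and -1.18.

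The IP to Sup ratio moved far less than either fraction. For Fabp1 the log2 ratio was 0.70, 0.79 and 0.82 in control mice 1, 2 and 3 and 0.98, 1.10 and 0.84 in the asthma mice 1, 2 and 3. The asthma mice were all above the control mice, by a difference of 0.20 (standard error 0.11). For Fpr1 it was 0.96, 0.81 and 0.79 in the control mice and 0.97, 1.12 and 1.02 in the asthma mice, a difference of 0.18 (standard error 0.10). For Apold1 it was 1.13, 0.38 and 0.84 in the control mice and 0.84, 1.02 and 0.65 in the asthma mice. The ratio of Apold1 overlapped between the groups, with a difference of 0.051 (standard error 0.19), and control mice 1 and 2 were its extremes.

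A ratio higher in all 3 asthma mice than in all 3 control mice was common on this scale. It was found in 41.8% of the 37141 probes tested for the ratio. The median ratio difference over these probes was 0.25, so Fabp1 and Fpr1 lay slightly under the shift of all probes and Apold1 further under it. With the scanner's processed signal Fabp1 was at 0.62 and Fpr1 at 0.44, against a median of 0.30. In the deposited values they were at 0.55 and 0.37 against 0.24. With offset 16 they were at 0.39 and 0.36 against 0.33, and with no background correction at 0.48 and 0.45 against 0.34. Both thus lay over the shift, as did Fabp1 with slide as a block and without control mouse 2 or 3 or asthma mouse 3. Apold1 stayed under it, as did all 3 genes when only the scaling was changed. From the lowest ratio difference, Apold1 was in place 5924, Fpr1 in place 14676 and Fabp1 in place 16020. With loess within each array, which removes the trend of the ratio with brightness, the median difference over all probes was 0.0018. The difference of Fabp1 was then -0.021 (standard error 0.12), with log2 ratios of 0.51, 0.61 and 0.95 in control mice 1, 2 and 3 and 0.70, 0.75 and 0.56 in the asthma mice 1, 2 and 3. That of Fpr1 was -0.12 (standard error 0.091), with control mice from 0.80 to 0.96 and asthma mice from 0.68 to 0.79, a gap of 0.016. That of Apold1 was -0.26 (standard error 0.16), with control mice from 0.44 to 1.02 and asthma mice from 0.34 to 0.70. After loess, 8.78% of the probes were lower in asthma without overlap, as Fpr1 was, while Fabp1 and Apold1 overlapped. The sign of the ratio difference thus turned with the scaling in all 3 genes. In Apold1 it also turned with slide as a block (-0.29), without control mouse 2 (-0.15) and without asthma mouse 2 (-0.042). The IP and Sup differences were below 0 under all 16 alternatives run. Blocks and leaving out a mouse could not change this, as they use the same values of groups that do not overlap.

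**Figure D3:**
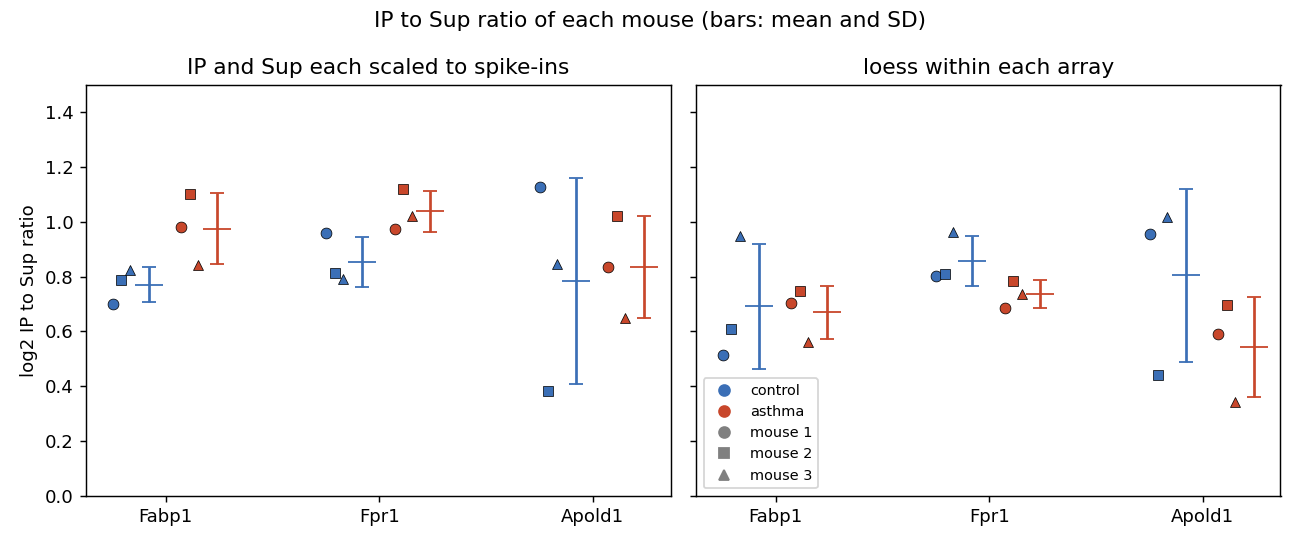
Log2 IP to Sup ratio (vertical axis) of Fabp1, Fpr1 and Apold1 in each of the 3 control and 3 asthma mice, with the mean and SD beside the points, from spike-in-scaled signals (left) and after loess within each array (right). The group means differ by 0.20, 0.18 and 0.051 on the left and by -0.021, -0.12 and -0.26 on the right.

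On the spike-in scale the spread among the control mice was wide for Fabp1 and Fpr1. From the lowest to the highest control mouse, the IP signal spanned 1.999-fold for Fabp1, 1.84-fold for Fpr1 and 1.17-fold for Apold1. In Sup these spans were 1.92-fold, 2.03-fold and 1.57-fold. The median log2 signal over all tested probes also differed among control mice 1, 2 and 3. It was 0.72, 0.72 and 0.51 in IP and 0.31, 0.50 and 0.33 in Sup, so control mouse 2 was the highest in Sup over all probes too. Among the asthma mice the spans were narrower in Fabp1 and Fpr1, at 1.33-fold and 1.14-fold in IP and 1.11-fold and 1.17-fold in Sup. For Apold1 the asthma mice spanned 1.24-fold in IP and 1.35-fold in Sup. The offset of 50 is close to the asthma spots in Sup, which were 54 to 88.5 in these genes, and adding it narrows the spans of dim spots more than those of bright ones. The SD of Fabp1 among control mice in IP was reached or passed by 9.47% of all tested probes, that of Fpr1 by 15.3% and that of Apold1 by 72.4%. In Sup these shares were 5.94%, 6.83% and 18.7%. The control SD of the spike-in-scaled ratio was 0.063 for Fabp1, 0.091 for Fpr1 and 0.38 for Apold1, and 87.9%, 77.1% and 7.67% of probes reached or passed it. After loess it was 0.23 for Fabp1, where control mouse 3 stood above the other two, 0.091 for Fpr1 and 0.32 for Apold1.

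The order and the spread of the control mice in IP were different in the deposited values, which rest on another signal as well as another scaling. In the deposited log2 values Fabp1 was 4.22, 4.67 and 4.68 in the IP of control mice 1, 2 and 3, so mouse 1 was the lowest and mice 2 and 3 were close. Fpr1 was 2.77, 3.38 and 3.47 and Apold1 was 1.74, 2.31 and 2.66 in the same mice. Control mouse 2 was thus not the highest there, Apold1 had the widest spread of the 3 among the control mice, and Fabp1 the narrowest. In the asthma mice the deposited IP values ran from 0.89 to 1.39 for Fabp1, from 0.94 to 1.16 for Fpr1 and from 0.25 to 0.60 for Apold1, all below the control mice. For Fabp1 the asthma mice were then spread about as widely as the control mice.

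Control mouse 1, the only control mouse on the slide of the asthma mice, was the nearest to them in the IP of Fabp1 and Fpr1. In Sup it was the nearest for Fpr1 and Apold1. Control mouse 2 was the nearest in the IP of Apold1, and control mouse 3 in the Sup of Fabp1. Over all tested probes, control mouse 1 was the lowest control mouse in 20.7% in IP and 44.2% in Sup. It was the lowest and still above all 3 asthma mice in 0.367% in IP and 8.16% in Sup. The genes were chosen for lower IP in asthma, so the IP share does not set them apart. Within slide 1 the IP signal of Fabp1 was 5.57-fold lower in the asthma mice than in control mouse 1, against 8.14-fold lower than in control mice 2 and 3 of the other slide. For Fpr1 these values were 2.30-fold and 3.45-fold, and for Apold1 2.17-fold and 2.20-fold. In Sup they were 6.74-fold and 9.16-fold for Fabp1, 2.43-fold and 4.07-fold for Fpr1, and 1.77-fold and 2.57-fold for Apold1. Within slide 1 the asthma mice were thus lower in all 3 genes and both fractions, with 1 control mouse behind it. This outcome was fixed, since no asthma mouse reached any control mouse in either fraction. Whether control mouse 1 differs from the others through its slide or as an animal cannot be told apart.

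**Figure D4:**
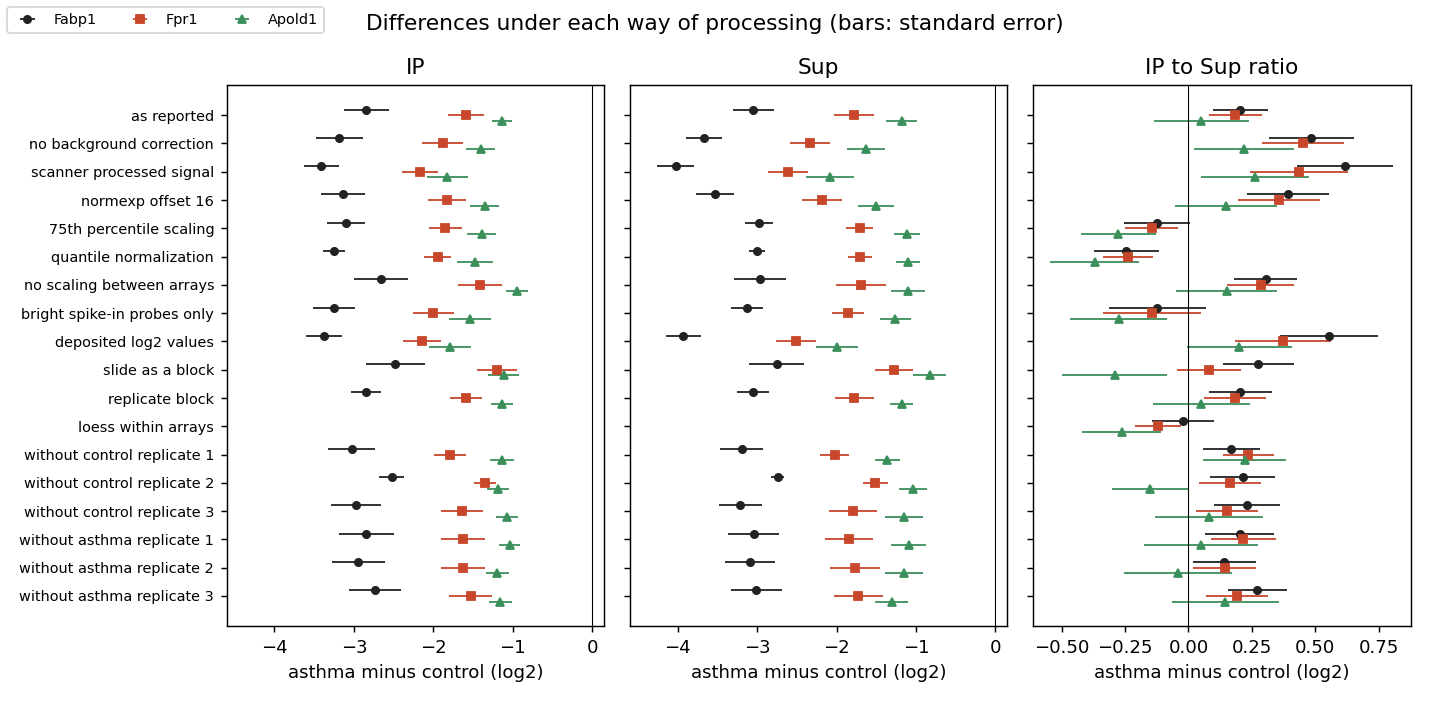
Asthma minus control log2 difference (horizontal axes) of Fabp1, Fpr1 and Apold1 in IP, Sup and the IP to Sup ratio, for the values as reported and each alternative way of processing (rows), with bars for the standard error of the fit. In IP and Sup all points lie below 0, from -4.03 to -0.83, whereas the ratio differences lie on both sides of 0, from -0.37 to 0.62.

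The profiles of the 3 genes over the mice resembled each other in IP. Among 3840 other probes well above background on all 6 arrays with an SD of at least 0.5, Fpr1 was the probe most like Fabp1 (Pearson r = 0.99 over 6 mice) and Fabp1 the one most like Fpr1. Next in line for both was the probe ASMM10EP3A116050003, which has no gene name here, with r = 0.94 to Fabp1 and r = 0.96 to Fpr1. This probe had a difference of -0.85 in IP and -1.36 in Sup. The probes most like Apold1 were Fabp1 (r = 0.94) and Fpr1 (r = 0.91). These values describe 6 mice in which all 3 genes were chosen for the same group difference, which every point of the correlation shares.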

How the data were processed

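The authors hybridised IP RNA (Cy5) and Sup RNA (Cy3) of each mouse to 1 of 6 arrays and extracted them with Agilent Feature Extraction version 11.0.1.1. The 2 files of a mouse were identical and were read as 1 array. Deposited were spot intensity values and a table of log2 values for 41337 probes, equal to the log2 processed signal less 1 constant per column. Median spot intensity was corrected here with limma's normexp method (offset 50) on all spots. The mean log2 signal of the 114 ERCC and spike-in probes of the channel was subtracted, and non-uniform spots were left out. Only 24 of the 114 were well above background on all 6 arrays in IP, so most probes behind the scaling are dim, and fold changes of dim transcripts are shrunk by the offset.

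Probes well above background on all 3 arrays of a group (for the ratio, in both channels) entered the fit, made with limma 3.58.1 under R 4.3.3. All 3 members passed. Standard errors are from this fit after its empirical Bayes step. A probe was called where it differed over 1.5-fold with an unadjusted P under 0.05. The fits were tested on simulated data. The members and gene lists were chosen with earlier results of these data known. Named were the 3 members, the next mRNA of the study's list, and the 2 probes most like each member by Pearson r in IP. The planned gene lists and marker lists were not analysed here, since no table names the probes. All arrays carry 1 scan time. Alternatives changed the background correction, offset, scaling, source of values, filter, empirical Bayes step, slide or replicate block, and each mouse in turn. Motifs were searched in RefSeq windows of 250 bases.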

Additional observations from a re-analysis of the deposited data

How the results depend on the processing

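Differences are asthma minus control on the log2 scale, and counts are transcript probes over 1.5-fold lower in asthma with an unadjusted limma P below 0.05, which were 21 in IP, 596 in Sup and 3 in the ratio. No IP or Sup difference of Fabp1, Fpr1 or Apold1 changed sign, and the groups did not overlap in either fraction under the 16 alternatives run for each. For the slide block, the replicate block and each mouse left out this outcome was fixed, since they use the same values. It is a result only for the alternatives that changed the signal or the scaling. Of the alternative values of the members, 107 moved by less than 1 SD of the mice. Another 32 moved by more, as did 8 that are the ratio differences of Fabp1 and Fpr1 that fell below 0. The ratio difference fell below 0 under 4 alternatives for Fabp1, 4 for Fpr1 and 7 for Apold1. The cause of the changes below was not tested.

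With the scanner's processed signal, IP was -3.41, -2.17 and -1.82 and Sup -4.03, -2.61 and -2.09 for Fabp1, Fpr1 and Apold1, the ratio of Fabp1 was 0.62 and of Fpr1 0.44, and the counts were 451, 5470 and 35. With no background correction, Sup was -3.67, -2.33 and -1.63, the IP of Apold1 was -1.41, the ratio of Fabp1 was 0.48 and of Fpr1 0.45, and the counts were 60, 2393 and 10. With the deposited values, Sup was -3.93, -2.51 and -1.99, the IP of Fpr1 was -2.14 and of Apold1 -1.79, the ratio of Fabp1 was 0.55 and of Fpr1 0.37, and the counts were 417, 3174 and 50. The 417 are by limma on the filtered probes, whereas the 227 of the opening are by the t test without that filter. With offset 16, the ratio of Fabp1 was 0.39 and of Fpr1 0.36, the IP of Apold1 was -1.35, and the counts were 43, 1542 and 5.

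The ratios of Fabp1 and Fpr1 turned below 0 with the 75th percentile (-0.12 and -0.14), quantile normalization (both -0.24), the bright spike-in probes only (-0.12 and -0.14) and loess within arrays (-0.021 and -0.12). The IP of Apold1 was -1.39 with the 75th percentile, -1.47 with quantile normalization and -1.54 with the bright spike-in probes, and its ratio was -0.37 with quantile normalization. Counts in IP and the ratio were 205 and 82 with the 75th percentile and 328 and 23 with quantile normalization. They were 1257, 1552 and 79 in IP, Sup and the ratio with the bright spike-in probes, and 72 in the ratio with loess. With no scaling, the ratio of Fpr1 was 0.28, the IP of Apold1 was -0.95 and the counts were 8, 174 and 0, where limma's adjusted P gave 0 in the ratio too. Without the empirical Bayes step the counts were 9, 231 and 1.

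The split of higher to lower calls in IP was 2564 to 21 as reported, 1034 to 205 with the 75th percentile, 602 to 328 with quantile normalization and 1263 to 1257 with the bright spike-in probes. In Sup it was 264 to 596 as reported, 1208 to 566 with the 75th percentile, 657 to 745 with quantile normalization and 261 to 174 with no scaling. In the ratio it was 4494 to 3 as reported and 69 to 72 with loess.

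With slide as a block, the ratio of Fpr1 was 0.079, the Sup of Apold1 was -0.83, and the counts were 141, 94 and 21. The deviations of same-numbered mice correlated at -0.38, 0.40 and 0.23 in IP and at -0.34, 0.14 and 0.25 in Sup. These values cannot show whether replicate numbers pair the mice, so the replicate block was run as an alternative only. With the replicate block the members' differences were -2.84, -1.59 and -1.13 in IP. They had to stay the same, since each replicate number holds 1 control and 1 asthma mouse. The counts were 30, 504 and 2.

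Leaving out 1 mouse at a time, IP differences lay between -3.03 and -2.53 for Fabp1, -1.79 and -1.35 for Fpr1 and -1.19 and -1.04 for Apold1. Sup differences lay between -3.21 and -2.74, -2.02 and -1.51, and -1.36 and -1.04, and ratio differences between 0.14 and 0.27, 0.14 and 0.24, and -0.15 and 0.22. Counts lay between 9 and 99 in IP, 114 and 2032 in Sup and 0 and 20 in the ratio. The IP count was 99 without control mouse 3, 85 without asthma mouse 3, 9 without asthma mouse 1 or 2, 32 without control mouse 1 and 13 without control mouse 2. The number over 1.5-fold lower without overlap, 16 in IP, was 39 without control mouse 1. The 698 of Sup were 1251 without control mouse 3 and 1217 without asthma mouse 3. The Sup count was 2032 without control mouse 1, 114 without control mouse 2, 323 without asthma mouse 1 and 215 without asthma mouse 2. All spots of the members were well above background, but their asthma Sup spots were dim, and the size of the Sup fold changed with the offset. With offset 16, Sup was 11.5-fold lower for Fabp1, 4.55-fold for Fpr1 and 2.83-fold for Apold1.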
